A study of Mus musculus with 4 samples.

Results

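The genes described here encode subunits of the 5 protein complexes of oxidative phosphorylation. They were taken by symbol from GENCODE M21, an annotation of the mouse build GRCm38 (mm10). For complex I, protein-coding genes named Nduf followed by a, b, c, s or v and a digit were taken, with the mitochondrially encoded Nd genes. The names were Sdha to Sdhd for complex II and Uqcr and mt-Cytb for complex III. They were Cox4 to Cox8 and mt-Co for complex IV, and Atp5 and mt-Atp for complex V. A gene was kept if its mean over the libraries reached 1 FPKM. FPKM expresses reads relative to the length of the gene and the size of the library. This gave 93 members of 12940 genes compared: 81 nuclear genes (37 of complex I, 4 of complex II, 8 of complex III, 15 of complex IV and 17 of complex V) and 12 genes of the mitochondrial genome (7, none, 1, 3 and 1). The measured genes of the pattern below the threshold of 1 FPKM were mt-Atp8, with a mean of 0.299 FPKM, and Cox8b, with 0.21 FPKM. Just above it were Atp5o, with 1.13 FPKM, and Ndufb2, with 1.19 FPKM.

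RNA was measured by sequencing in brain and in spine of CD-1 mouse embryos, an outbred strain, at embryonic day 9.5 (E9.5). There were 4 libraries, 1 each of control brain, brain with a neural tube defect (NTD), control spine and NTD spine, and the labels give no genotype and no number of embryos behind a library. In the NTD model, mice of both sexes had been on a diet low in folate for over 8 weeks before mating, having been supplied at 7 to 8 weeks of age, and pregnant females were injected with methotrexate (MTX), which blocks folate metabolism, at 1.5 mg/kg on E7.5. The same protocol text stands beside the controls, which are not said to have had the diet or an injection or to have been spared them, so diet, drug, defect and any batch of litters cannot be told apart. With 1 library per group no difference has a replicate check and no p-value is given.

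The library totals were between 16272101 and 16911677 reads. They were worked out from the FPKM values and are not given by the labels. Wherever 4 values follow each other, those of the control and the NTD brain come first, then those of the control and the NTD spine. None of 12 markers of early neurons was at 0 in any library, and they summed to 179, 114, 106 and 55.97 FPKM. Markers of heart muscle summed to 56.6, 231, 827 and 547 FPKM, those of primitive red cells to 4501, 4839.7, 7018 and 3663 FPKM, and those of endoderm to 1.22, 1.38, 125 and 38.6 FPKM. In bulk tissue, fewer cells of a type and less RNA per cell cannot be told apart.

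Oxidative phosphorylation makes ATP in the inner mitochondrial membrane. Complexes I and II pass electrons from NADH and succinate to coenzyme Q, complex III passes them to cytochrome c, and complex IV to oxygen. Complexes I, III and IV pump protons as they do so, and complex V, the ATP synthase, uses the returning protons to make ATP. Most subunits are encoded in the nucleus and imported. The mitochondrial genome encodes a few core subunits of every complex but complex II, and these are transcribed as long RNAs that are then cut into single messages. Nuclear genes of the pathway are known targets of the transcription factors NRF1 and GABP, an ETS family factor.

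Some sequences are shown first because they bear on how far the mitochondrial genes can be measured. A stretch of chromosome 1 (GRCm38, chr1:24611535-24616197, minus strand) holds 7 annotated unprocessed pseudogenes that copy mitochondrial genes. Over the bases compared, those of mt-Co2 (Gm28661, 681 bases), mt-Atp6 (Gm10925, 678 bases), mt-Co3 (Gm28437, 783 bases), mt-Nd4l (Gm10222, 294 bases) and the first 876 bases of mt-Nd4 (Gm28439) had no difference from the mitochondrial gene. The copy of mt-Nd3 (Gm28438, 345 bases) had 1 difference, T3C, the mitochondrial base being given first and positions counted from the first base of the gene. The first 60 bases of mt-Nd3 (chrM:9459-9518, plus strand) and of its copy (chr1:24613060-24613119, minus strand) show this difference in capitals, and bases 362 to 421 of mt-Co3 (chrM:8968-9027, plus strand) and of its copy (chr1:24613551-24613610, minus strand) show a stretch without any.
mt-Nd3: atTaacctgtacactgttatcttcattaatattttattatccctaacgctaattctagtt
Gm28438: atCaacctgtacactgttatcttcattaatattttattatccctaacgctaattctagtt
mt-Co3: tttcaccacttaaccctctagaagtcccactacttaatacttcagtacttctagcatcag
Gm28437: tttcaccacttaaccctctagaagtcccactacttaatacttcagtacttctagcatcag
A read from such a stretch fits both places equally, and the way such reads were assigned was not given in the sources used here.

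For the nuclear members, promoters of RefSeq (GRCm38.p6, from 250 bases before to 50 after the start) were found for 64 of 81 genes. The NRF1 motif GCGCANGCGC, searched on both strands, was in the promoters of 17 of these 64 genes (26.6%), against 12.1% of the compared protein-coding genes with a promoter and 4.603% of all 32851 promoters. The ETS motif CCGGAAG was in 16 (25.0%), against 20.9% and 8.86%, and the YY1 motif AANATGGCG in 10 (15.6%), against 6.39% and 2.38%. All were searched on both strands, N standing for any base, and in 0 member promoters did matches of different motifs overlap. By complex, NRF1 motifs were in 7 of 32 promoters of complex I, 2 of 3 of complex II, 1 of 5 of complex III, 1 of 11 of complex IV and 6 of 13 of complex V. One promoter window of 60 bases per complex, read along the gene with the motif (or its reverse complement) in capitals, shows where it lies in the member of highest mean FPKM that holds it. The windows are chr2:36049334-36049393 (minus) for Ndufa8, chr9:50603894-50603953 (minus) for Sdhd, chr9:108936628-108936687 (plus) for Uqcrc1, chr5:115349086-115349145 (minus) for Cox6a1 and chr2:10080415-10080474 (minus) for Atp5c1.
Ndufa8: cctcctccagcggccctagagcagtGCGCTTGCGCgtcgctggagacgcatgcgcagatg
Sdhd: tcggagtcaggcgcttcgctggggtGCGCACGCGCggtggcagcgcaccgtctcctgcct
Uqcrc1: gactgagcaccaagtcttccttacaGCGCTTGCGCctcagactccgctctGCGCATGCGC
Cox6a1: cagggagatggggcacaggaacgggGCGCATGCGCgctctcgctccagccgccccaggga
Atp5c1: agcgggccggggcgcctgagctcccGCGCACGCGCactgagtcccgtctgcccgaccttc
A match is a description of these letters and not a measured binding site.

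Levels are given per length, as FPKM. The nuclear members had a median of 39.96, 39.4, 42.4 and 37.3 FPKM, against 7.33, 7.03, 7.48 and 7.22 FPKM over all genes compared. By complex, the medians over the libraries were lowest for complex I, from 35.1 to 35.2 FPKM, and highest for complex IV, from 74.1 to 81 FPKM. The highest nuclear member was Atp5b, the catalytic beta subunit of ATP synthase, with 307, 325, 329.9 and 324 FPKM. Next came the complex IV subunit Cox6a1, with 262, 257, 276 and 223 FPKM. The 12 mitochondrial members together came to 13569, 15545, 12424 and 12514 FPKM and the 81 nuclear members to 4351, 4410.0, 4538 and 4173 FPKM, so the mitochondrial sum was 3.12, 3.53, 2.74 and 3.0 times the nuclear sum. The ratio was highest in NTD brain and was higher in the NTD library than in the control library of both tissues. In spine the mitochondrial sum was near level and the nuclear sum lower in the NTD library. The mitochondrial medians were 649, 582, 551 and 462 FPKM, lower in the NTD library of both tissues.

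**Figure D1:**
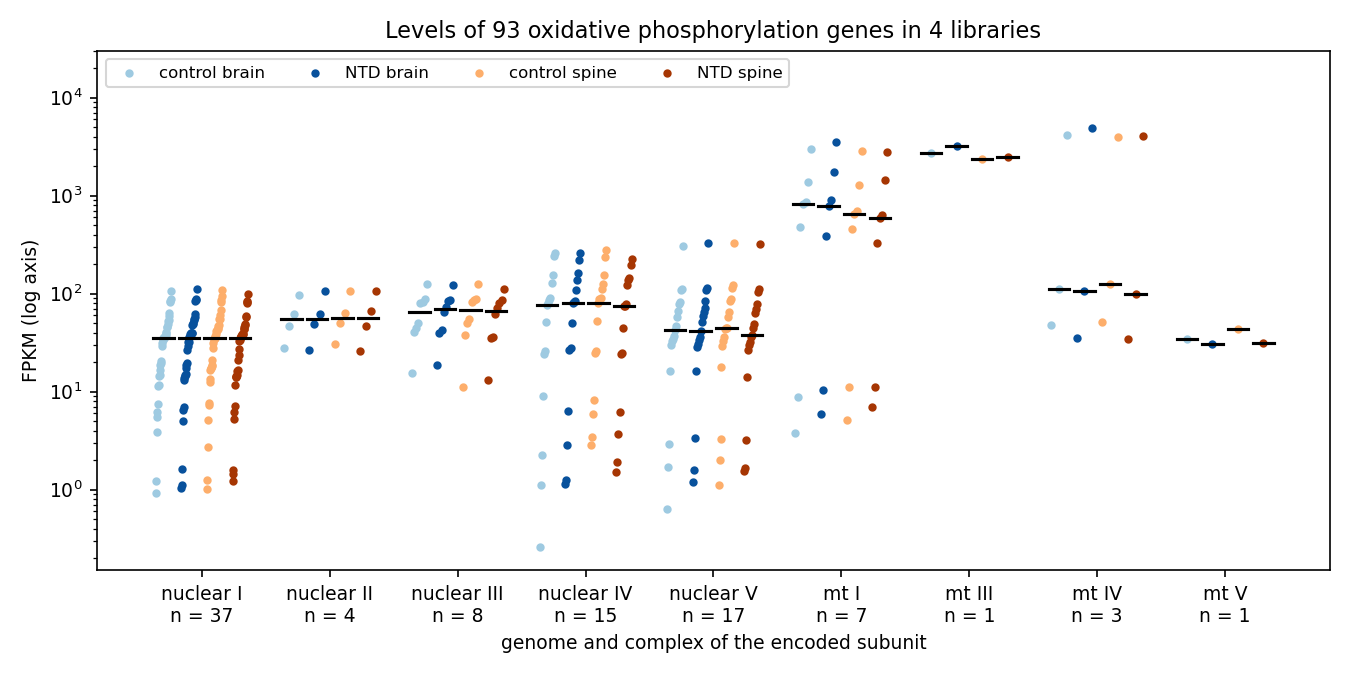
FPKM (log axis) of the 93 members in the 4 libraries, by genome and complex; each point is 1 gene in 1 library and each black bar the median of a group in that library. The nuclear groups overlap across libraries with medians between 35.1 and 81 FPKM, while mitochondrial members run from 3.78 to 4885 FPKM.

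The comparison of NTD with control brain asks how these genes differ between brains with and without the defect. Here the nuclear members stood level with the control. The mitochondrial members were higher at the median but split, with 5 of 12 lower and 7 higher, where 56.4% of all genes were lower. The difference used is the log2 ratio of (FPKM + 1), and members are counted when it passes a ratio of 5 to 4 (25% higher, or lower by the same factor). Its median over the 81 nuclear members was 0.00, against -0.03 over all genes compared and 0.01 over the protein-coding genes averaging 20 FPKM or more. Of the nuclear members 39 were lower in NTD brain, where 56.4% of all genes were lower. That number was 31 after rescaling by the median ratio, where 50.6% of all genes then were. It was 46 after rescaling to the same sum without mitochondrial genes (61.4% of all genes). Lower past the 5-to-4 threshold were Ndufs3 and Cox6b2, 2 of 81 (9.34% of all genes were). Higher past it were Cox6a2, Atp5o and Uqcrc2, 3 of 81 (5.06% of all genes were). The range of the nuclear median over the settings tried was -0.03 to 0.04, so it has no stable sign. No member was 2-fold different on this scale (1.58% of all genes were). Of the 12 mitochondrial members, 2 were lower and 2 higher past the 5-to-4 threshold. Markers of early neurons were lower in NTD brain for 12 of 12 genes, and heart markers higher for 13 of 13 past the filter. Red cell markers were lower there for 4 of 10 genes and those of endoderm for 1 of 5 past the filter. The part of these cell types in this result was not tested.

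The comparison of NTD with control spine asks the same of the spine. Here most nuclear members were slightly lower in the NTD library. Of the 12 mitochondrial members 8 were lower and 4 higher, where 58.0% of all genes were lower. Past the 5-to-4 threshold 4 of the 12 were lower (11.1% of all genes were) and 1 was higher (4.22% of all genes were). The nuclear median was -0.13, against -0.04 over all genes and -0.02 over the protein-coding genes averaging 20 FPKM or more. Of the 81 nuclear members 63 were lower, where 58.0% of all genes were, and 41 had a counting interval of their fold wholly below equality against 7 wholly above it. Of all genes whose reads came out whole, 26.6% had such an interval below equality and 17.2% above it, and of those coding for protein and averaging 20 FPKM or more 34.7% and 29.7%. These intervals cover counting error only. The size of the median depends on the scaling. After rescaling by the median ratio it was -0.09 with 54 lower, where 51.1% of all genes then were. Rescaling to the same sum without mitochondrial genes gave -0.07 with 50 lower (47.8% of all genes). Adjustment for GC content and length gave -0.07 with 58 lower (59.3% of all genes). The 8 nuclear members lower past the 5-to-4 threshold (11.1% of all genes were) were Cox6b2, Cox6a2, Ndufa4l2, Uqcrq, Cox7a1, Ndufs7, Ndufv3 and Atp5d. No nuclear member was higher past it (4.22% of all genes were), and none was 2-fold different on the log2 (FPKM + 1) scale (1.33% of all genes were), though Cox6b2 and Cox6a2 passed 2-fold as ratios of reads. Red cell markers had lower levels in NTD spine for 10 of 10 genes and heart markers for 13 of 13 genes past the filter. Markers of early neurons were lower there for 11 of 12 genes and those of endoderm for 5 of 5 past the filter, and the part of these cell types in this result was not tested.

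Over the complexes, the spine medians were -0.13 for complex I, -0.06 for complex II, -0.06 for complex III, -0.19 for complex IV and -0.12 for complex V, each below the -0.04 of all genes. The brain medians were -0.04, 0.03, -0.02, 0.06 and 0.02 in that order. Complex IV thus had both the lowest median in spine and the highest in brain. With Ndufa4 counted in complex IV, where the protein is now placed, and Cox7a2l and Atp5s left out, the spine medians of complexes I, IV and V were -0.13, -0.14 and -0.13, so complex IV then stood level with them. The 17 nuclear members with an NRF1 motif had a spine median of -0.14 and the 47 without one -0.13.

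**Figure D2:**
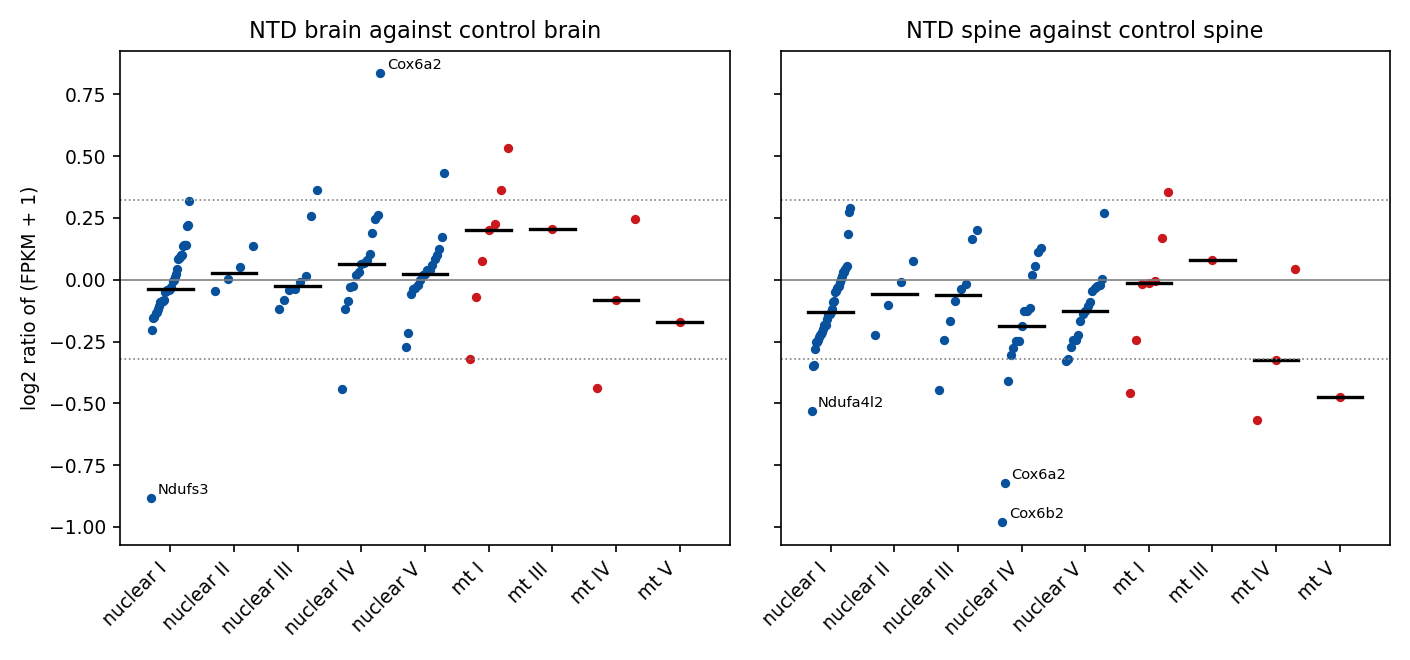
Log2 ratio of (FPKM + 1) for each of the 93 members, by genome and complex, in NTD against control brain (left) and NTD against control spine (right); black bars are medians and dotted lines mark ratios of 5 to 4. Nuclear complex medians lie between -0.04 and 0.06 in brain and between -0.19 and -0.06 in spine.

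Complex I oxidises NADH and is the largest of the complexes. Its most abundant nuclear members were Ndufa4, with 105, 112, 109 and 98.6 FPKM, Ndufa2, an accessory subunit, with 87.2, 85.0, 93.9 and 79.9 FPKM, and Ndufc2, also accessory, with 82.7, 88.7, 82.4 and 84.3 FPKM. Ndufa2 was 1.18-fold lower in NTD than in control spine (95% interval 1.06 to 1.30) and lowest of all libraries there, while Ndufc2 overlapped equality in both tissues. Ndufs1, a core subunit that holds iron-sulphur clusters, was higher in the NTD library of both tissues. It had 11.5, 14.6, 12.4 and 14.2 FPKM, which is 1.27-fold higher in brain (1.19 to 1.36) and 1.15-fold higher in spine (1.07 to 1.23).

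Ndufs7, another core iron-sulphur subunit, had 33.9, 29.3, 35.1 and 27.3 FPKM, with both NTD libraries below both controls. It was 1.16-fold lower in brain (1.05 to 1.27) and 1.28-fold lower in spine (1.17 to 1.41). Ndufv3, an accessory subunit of the NADH-binding module, had 14.4, 13.3, 18.3 and 14.2 FPKM and was highest in control spine, 1.29-fold above NTD spine (1.17 to 1.42). Ndufb6, an accessory membrane subunit, had 35.1, 31.9, 31.3 and 38.6 FPKM and was 1.23-fold higher in NTD spine (1.06 to 1.42). In brain Ndufb6 overlapped equality. Of its exon bases 39.0% lie under a gene on the other strand, Smim27, which had at most 0.214 FPKM.

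Ndufs3, a core subunit, had only 3.83, 1.62, 1.02 and 1.44 FPKM, below the core subunits Ndufs1 and Ndufs7 in every library. It stood 2.37-fold lower in NTD than in control brain (1.73 to 3.27) and was the lowest brain ratio of all members. In spine it was 1.42-fold higher with an interval that holds equality (0.908 to 2.23). A processed pseudogene, Gm12251 (chr11:58392769-58393560, minus strand), shares its whole coding sequence at 98.6% identity and had 3.51, 5.29, 6.21 and 4.64 FPKM. The copy was high where Ndufs3 was low, so the split of reads between them is uncertain. Ndufb9 and Ndufb2, also low, at 5.22 and 1.19 FPKM in the mean, did not differ beyond counting error in either tissue.

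Complex II is made of 4 nuclear subunits and also works in the citric acid cycle. Sdha, which carries the flavin, had 62.4, 62.5, 63.5 and 67.0 FPKM and was 1.06-fold higher in NTD spine (1.01 to 1.1). Sdhb, the iron-sulphur subunit, had 46.8, 48.5, 49.6 and 46.1 FPKM and was 1.07-fold lower there (1.01 to 1.15). Of the membrane anchors, Sdhc had 27.7, 26.8, 30.5 and 26 FPKM and was 1.17-fold lower in NTD spine (1.09 to 1.26). Sdhd had 96.7 FPKM in control brain and 106 FPKM in each of the other libraries, 1.1-fold higher in NTD than in control brain (1.04 to 1.17). So the subunits of this complex did not share a direction in spine, and none passed the 5-to-4 threshold.

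In complex III, 3 of the most abundant members were level across the libraries apart from NTD spine for Uqcr10. Uqcr10, a small subunit, had 124, 124, 124 and 111 FPKM, 1.12-fold lower in NTD spine (1.03 to 1.22). Uqcrfs1, the Rieske iron-sulphur protein, had 87.5, 85.1, 87.9 and 86.8 FPKM, and Uqcrh, the hinge protein, had 82.3, 83.3, 82.0 and 79.9 FPKM. Both overlapped equality in brain and in spine. The core proteins were higher in both NTD libraries. Uqcrc2 (chr7:120635176-120659524, plus strand) had 50.1, 64.8, 54.5 and 61.2 FPKM, with both NTD libraries above both controls. It was 1.29-fold higher in brain (1.22 to 1.37) and 1.12-fold higher in spine (1.06 to 1.19). Uqcrc1 had 15.5, 18.7, 11.2 and 13 FPKM with NTD above control by 1.21-fold in brain (1.11 to 1.31) and by 1.16-fold in spine (1.05 to 1.28).

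The small subunit Uqcrq (chr11:53427922-53430831, minus strand) had 44.9, 42.3, 49.5 and 36.0 FPKM. It was 1.37-fold lower in NTD than in control spine (1.27 to 1.49), while in brain its interval held equality. Uqcr11, another small subunit, had 79.98, 73.6, 84.9 and 71.6 FPKM, 1.19-fold lower in NTD spine (1.08 to 1.31). Both NTD libraries were below both controls for Uqcr11. Its pseudogene Gm16418 shares the whole coding sequence at 98.8% identity and had 51.5 to 64.3 FPKM.

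Complex IV, cytochrome c oxidase, had the lowest spine median. Cox6a1, the common form of subunit VIa, had 262, 257, 276 and 223 FPKM and was 1.24-fold lower in NTD spine (1.17 to 1.30). Cox8a had 239, 220.0, 234 and 197 FPKM and was lower in both NTD libraries, 1.09-fold in brain (1.03 to 1.15) and 1.19-fold in spine (1.12 to 1.26). Cox6b1 had 154, 163, 156 and 142 FPKM, and Cox4i1, the common form of subunit IV, had 86.2, 81.2, 89.8 and 74.1 FPKM. NTD spine was thus the lowest library for each of these abundant subunits. Against this direction, Cox7c had 129, 139, 126 and 138 FPKM and was the highest complex IV ratio in spine, 1.1-fold higher (1.04 to 1.16). Cox7b had 89.8, 108, 112 and 121 FPKM and was higher in both NTD libraries, 1.2-fold in brain (1.13 to 1.28) and 1.08-fold in spine (1.02 to 1.15). Cox7c has a pseudogene with identical coding sequence, Gm12338, at 153 to 173 FPKM.

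Several subunits have a second isoform known for a particular tissue. Cox6a2 (chr7:128205435-128206387, minus strand), the form of heart and skeletal muscle, had 0.261, 1.3, 3.43 and 1.51 FPKM, from 3, 14, 38 and 17 reads. It was 4.79-fold higher in NTD than in control brain (1.34 to 26) and 2.28-fold lower in NTD than in control spine (1.26 to 4.31). Between the controls, brain stood 13.2-fold below spine (4.18 to 66.7). Control brain was lowest and control spine highest. Cox7a1, the muscle form of subunit VIIa, had 1.11, 1.13, 2.87 and 1.91 FPKM, from 10, 10, 25 and 17 reads, and did not differ beyond counting error between NTD and control. Heart muscle markers followed the same order of libraries as Cox6a2, with 13 of 13 genes past the filter higher in NTD brain and 13 of 13 lower in NTD spine. Actc1, cardiac actin, had 20.8, 90.0, 307 and 211 FPKM. Nppa, the atrial natriuretic peptide gene, was at 0 in control brain and was the only heart marker at 0. Their part in the Cox6a2 result was not tested.

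Cox6b2 (chr7:4751792-4753094, minus strand), known as the testis form of subunit VIb, had 8.91, 6.30, 8.26 and 3.70 FPKM and was lower in both NTD libraries. It was 1.41-fold lower in brain (1.11 to 1.81) and 2.24-fold lower in spine (1.67 to 3.02), the only nuclear member past the 5-to-4 threshold in the same direction in both tissues. Ndufa4l2, a relative of Ndufa4 that is induced by low oxygen, had 0.918, 1.11, 2.75 and 1.59 FPKM and was 1.72-fold lower in NTD spine (1.07 to 2.83). Cox4i2, the form of subunit IV known from lung and low oxygen, had 2.25, 2.85, 5.93 and 6.19 FPKM. It was near level between NTD and control spine and overlapped equality in brain, but differed between the tissues, with both spine libraries above both brain libraries. Cox7a2 had 77.2, 80.9, 81 and 74.1 FPKM and Cox7a2l, a factor that joins complexes III and IV, 50.8, 49.8, 52.6 and 44.2 FPKM. The muscle form Cox8b was below 1 FPKM, with 1, 0, 2 and 2 reads, and Cox7b2 and Cox8c were not analysed here.

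**Figure D3:**
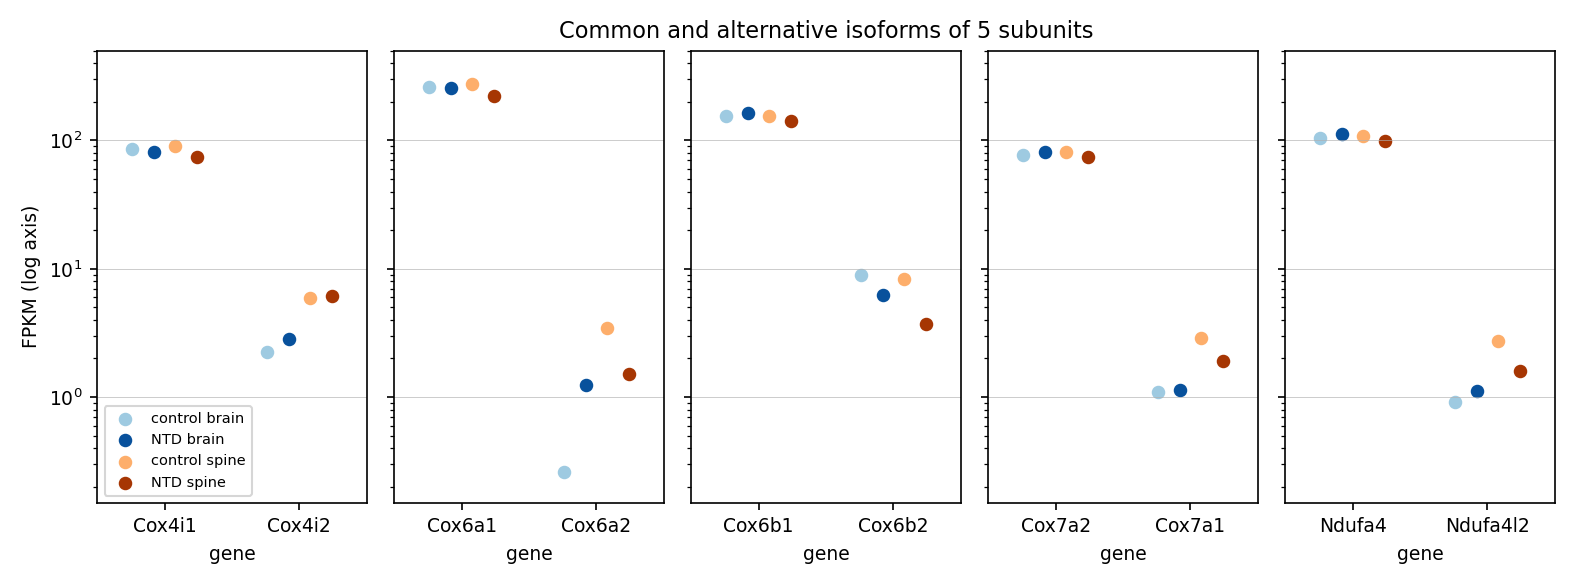
FPKM (log axis) in the 4 libraries of the common (left in each panel) and the alternative (right) isoform of 5 subunits. The common forms span at most 223 to 276 FPKM for Cox6a1, while the alternative form Cox6a2 runs from 0.261 FPKM in control brain to 3.43 FPKM in control spine.

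Complex V, the ATP synthase, had 15 of 17 nuclear members lower in NTD spine, where 58.0% of all genes were. Atp5b, given above, stood 1.06-fold above control in NTD brain (1.04 to 1.08), while its interval held equality in spine. Atp5c1, the gamma subunit of the rotor, had 110.4, 115, 121 and 113 FPKM and was 1.08-fold lower in NTD spine (1.03 to 1.13). Atp5d (chr10:80138632-80145818, plus strand), the delta subunit of the rotor, had 77.7, 64.2, 88.3 and 70.1 FPKM. Both NTD libraries were lower, 1.21-fold in brain (1.14 to 1.28) and 1.26-fold in spine (1.19 to 1.33). The membrane ring subunit c is encoded by 3 genes that give the same mature protein. Atp5g3 had 109, 109, 114 and 104 FPKM, Atp5g2 had 46.6, 50.8, 44.3 and 44.3 FPKM and Atp5g1 had 16.1, 16.3, 17.7 and 13.9 FPKM. Atp5g1 was 1.27-fold lower in NTD spine (1.17 to 1.37), Atp5g3 was 1.1-fold lower (1.05 to 1.15) and Atp5g2 was level. A pseudogene of Atp5g1, Gm10039, matches its whole coding sequence at 99.8% identity and had 144 to 162 FPKM, above the gene itself.

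The lowest members of complex V were Atp5o, Atp5l and Atp5s. Atp5o, which joins the head of the synthase to its membrane part, had 0.63, 1.2, 1.12 and 1.56 FPKM, from 21, 39, 36 and 51 reads. It stood 1.91-fold above control in NTD brain (1.09 to 3.41), while in spine its interval held equality (0.889 to 2.19). Other genes cover 47.9% of its exon bases, its pseudogene Gm5436 had 8.74, 5.76, 8.89 and 7.96 FPKM, and an annotated protein-coding twin gene of the same symbol was not analysed here. Atp5l, with 1.69, 1.58, 1.98 and 1.65 FPKM, has 8 near-identical copies, of which Gm10221 is identical over the coding sequence and had 45.2 to 57.7 FPKM. The level of Atp5o and Atp5l is therefore uncertain.

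In all, 22 of the 81 nuclear members have a copy elsewhere with at least 95% identity over at least 50% of the coding sequence. The spine median was -0.14 for these 22 and -0.13 for the other 59, and the brain medians were 0.01 and 0.00. All 8 members lower past the 5-to-4 threshold in spine were among the 59 without a copy, 13.6% of these, where 11.1% of all genes were. The 22 with a copy are too few for this count to tell the groups apart.

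The mitochondrial members differed more from each other than from one library to the next. mt-Co1, the catalytic subunit of complex IV, was highest with 4122, 4885, 3931 and 4050.1 FPKM. mt-Nd1, a membrane subunit of complex I, had 2978, 3484, 2824 and 2798 FPKM. mt-Cytb, the haem protein of complex III, had 2746, 3169.9, 2349.7 and 2483 FPKM. For each of these, NTD brain was the highest library. mt-Nd2 had 1365, 1755, 1279 and 1438 FPKM, mt-Nd4 had 854, 900.0, 703 and 594 FPKM and mt-Nd5 had 815, 777, 648 and 640.1 FPKM. All of these complex I subunits of the membrane arm were higher in control brain than in control spine.

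The 5 members with a chromosome 1 copy over at least 95% of their length stood far lower. mt-Co2, the complex IV subunit that takes electrons from cytochrome c, had 112, 106, 124 and 98.7 FPKM, while its copy Gm28661 had 63.9, 64.3, 74.0 and 59.96 FPKM. mt-Atp6, the proton channel subunit of ATP synthase, had 34.2, 30.3, 43.5 and 31.0 FPKM, below its copy Gm10925 with 95.2, 104, 106 and 85.9 FPKM. mt-Co3, a core subunit of complex IV, had 47.8, 35.0, 51.3 and 34.3 FPKM and its copy Gm28437 had 32.2, 27.3, 40.6 and 31.6 FPKM. mt-Nd3 had 8.84, 10.3, 11.1 and 11.1 FPKM, below its copy Gm28438 with 38.7, 28.2, 55.0 and 67.2 FPKM. mt-Nd4l had 3.78, 5.93, 5.17 and 6.89 FPKM, near its copy Gm10222 with 4.22, 4.75, 4.18 and 4.92 FPKM. mt-Atp8, which overlaps mt-Atp6, had 0, 1, 2 and 1 reads. These genes lie between mt-Co1 and mt-Nd4 on the same strand, so the low levels form 1 block in the middle of the mitochondrial genome.

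**Figure D4:**
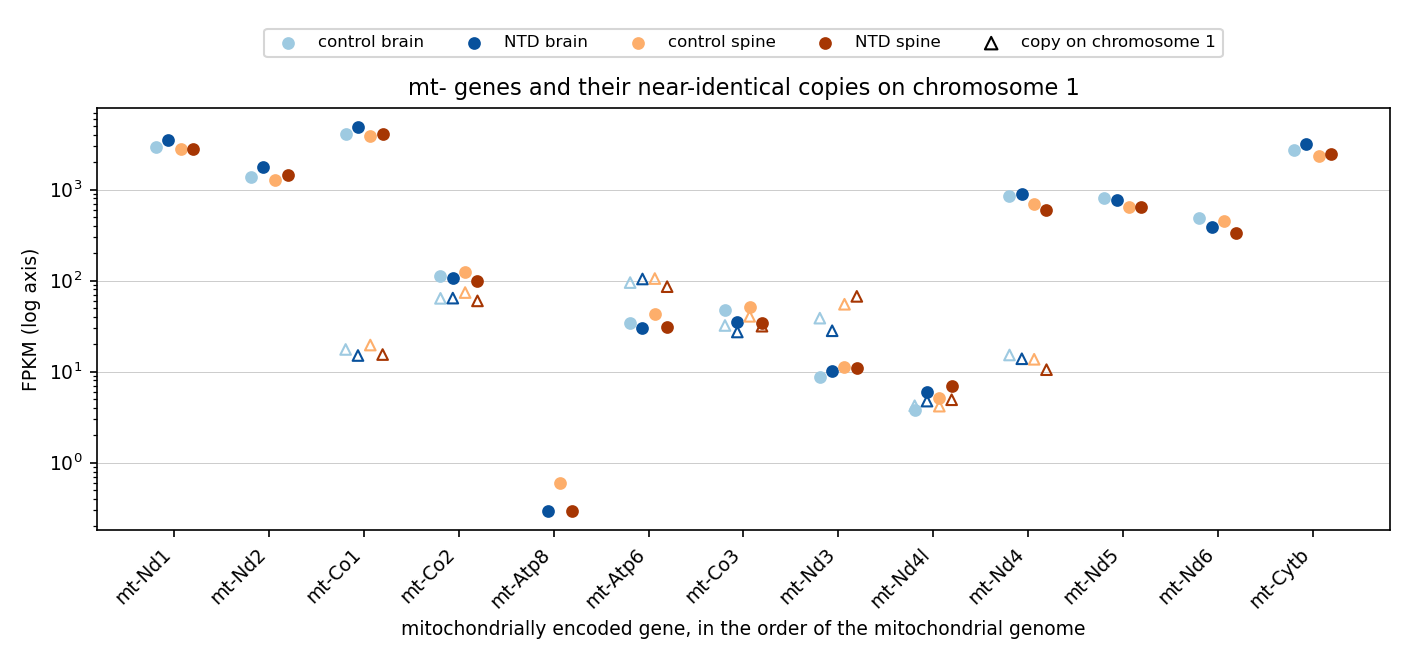
FPKM (log axis) of the 13 mitochondrial protein genes in genome order (filled circles, coloured by library) and of their copies on chromosome 1 (open triangles). The genes from mt-Co2 to mt-Nd4l sit at or below 124 FPKM, while the genes on either side lie at 329.8 FPKM or more. Of these low genes, mt-Co2 and mt-Co3 lie above their copies, mt-Atp6 and mt-Nd3 below them and mt-Nd4l near its copy. For mt-Atp8 no copy is drawn, and its value of 0 in control brain is not drawn either.

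Between NTD and control, the mitochondrial median was 0.14 in brain and -0.02 in spine. In brain it was 0.065 with the reads of the chromosome 1 copies added and 0.22 over the 4 members without a near-identical copy, and the sign in spine turned to 0.04 after rescaling to the same sum without mitochondrial genes. The 5 heavy-strand genes mt-Nd1, mt-Nd2, mt-Co1, mt-Nd5 and mt-Cytb have no chromosome 1 copy, except over 31.8% of mt-Co1. Their median was 0.23 in brain, 17% higher, and 0.04 in spine. mt-Nd2 stood 1.29-fold above control in NTD brain (1.26 to 1.31) and 1.12-fold higher in NTD spine (1.1 to 1.14). mt-Co1 was 1.19-fold higher in NTD brain (1.18 to 1.19), mt-Nd1 1.17-fold (1.16 to 1.18) and mt-Cytb 1.15-fold (1.14 to 1.17), but mt-Nd5 was 1.05-fold lower (1.03 to 1.07). So the intervals of these deeply read genes exclude equality in brain without a common direction.

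mt-Nd6, the one protein gene read from the light strand (chrM:13552-14070, minus strand), had 483, 386, 454 and 329.8 FPKM. Both NTD libraries were below both controls, 1.251-fold in brain (1.195 to 1.31) and 1.38-fold in spine (1.31 to 1.44). This was opposite to mt-Cytb and mt-Nd2 on the heavy strand, but not to every gene of that strand. There mt-Nd5 had log2 ratios of -0.07 in brain and -0.02 in spine. mt-Nd4 was 1.05-fold higher in NTD brain (1.03 to 1.07) but 1.19-fold lower in NTD spine (1.16 to 1.21). mt-Co3 was lower in both NTD libraries too, 1.37-fold in brain (1.21 to 1.54) and 1.50-fold in spine (1.32 to 1.69), and with the reads of its copy added the log2 ratios were -0.36 and -0.47. mt-Atp6 was 1.40-fold lower in NTD spine (1.22 to 1.61). mt-Nd4l was higher past the 5-to-4 threshold in both tissues, at log2 ratios of 0.53 and 0.35, but its fold intervals held equality. For mt-Nd3 the brain ratio of 0.20 turned to -0.30 when the reads of the copy were added, and for mt-Atp6 -0.17 turned to 0.06. The ribosomal RNA mt-Rnr2, which is no member, had 213, 399.7, 203 and 345 FPKM, higher in the NTD library of both tissues. Of the 3 mitochondrially encoded RNAs that are no protein genes, it was the only 1 higher in NTD spine, where 2 were lower. In NTD brain 2 were higher and 1 lower.

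The nuclear median lay below the mitochondrial median in all 4 comparisons as written. These use the same 4 libraries and are not independent of each other. Between tissues the sign of the difference also depends on which tissue is put first. The difference was -0.13 in NTD against control brain, -0.11 in NTD against control spine, -0.13 in control brain against control spine and -0.18 in NTD brain against NTD spine. Its range over the settings tried was -0.21 to -0.06 in brain and -0.16 to -0.09 in spine. The 5 mitochondrial members with a chromosome 1 copy over at least 95% of their length went the other way. Their medians in the same 4 comparisons were -0.08, -0.33, -0.30 and -0.03, each below the nuclear median. The 7 members without such a copy had 0.21, -0.01, 0.09 and 0.29. The nuclear and mitochondrial groups differ in make-up as well. Median GC content was 50.3% for nuclear and 37.4% for mitochondrial members, and median exon length 1569 and 870.5 bases. The part of GC content and length in this difference was not tested.

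Brain and spine comparisons share no library. Of the 81 nuclear members, 35 (43.2%) were lower in the NTD library of both tissues, where 41.1% of all genes were, and 14 were higher in both. A further 28 (34.6%) were higher in brain and lower in spine, where 16.8% of all genes were, and 4 the reverse. The spine ratio lay below the brain ratio for 68 of 81 nuclear members (84.0%) and 11 of 12 mitochondrial ones, against 49.2% of all genes compared. These counts were made on the FPKM as deposited, and other scalings or an adjustment for GC content were not tried for them. Across the nuclear members the correlation of brain with spine ratios was 0.084 by Pearson's r and 0.366 by Spearman's rho, and across the 12 mitochondrial members 0.942 and 0.951. Over all 12940 genes r was 0.401. Genes are not independent replicates, and each axis rests on the same pair of libraries for every gene.

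**Figure D5:**
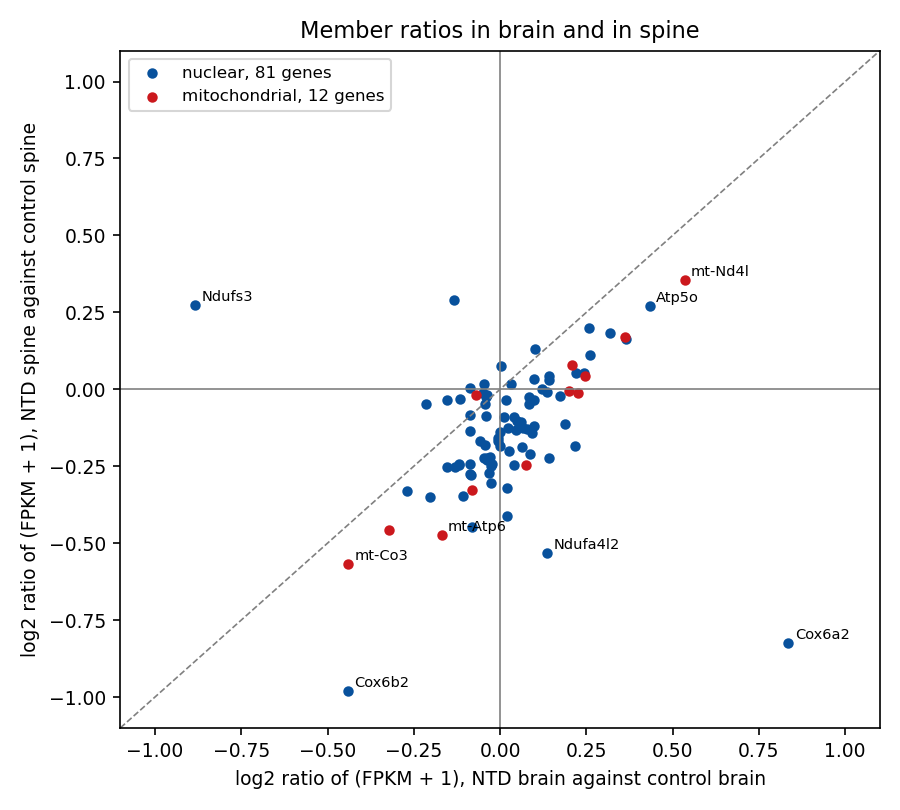
Log2 ratio of (FPKM + 1) in NTD against control brain (x axis) and in NTD against control spine (y axis) for 81 nuclear (blue) and 12 mitochondrial (red) members; the dashed line marks equal ratios. Most nuclear points (68 of 81) lie below the dashed line, and Cox6a2 and Ndufs3 lie far from it in opposite corners.

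Between the control tissues, nuclear members were mostly somewhat lower in brain than in spine. The median was -0.06, with 58 of 81 lower (48.6% of all genes were), 6 lower past the 5-to-4 threshold (10.6% of all genes were) and 2 higher past it (7.53% of all genes were). The 6 lower ones were Cox6a2, Cox4i2, Ndufa4l2, Cox7a1, Atp5o and Ndufv3, and the 2 higher ones were Ndufs3 and Uqcrc1. Cox6a2, Cox4i2 and Ndufs3 were 2-fold different on the log2 (FPKM + 1) scale (3.36% of all genes were). As ratios of reads, Cox4i2 was 2.63-fold lower in control brain (1.70 to 4.16), Ndufa4l2 3.0-fold lower (1.70 to 5.55) and Cox7a1 2.60-fold lower (1.21 to 6.06). Uqcrc1 was 1.38-fold higher (1.26 to 1.52). The mitochondrial median was 0.07.

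Between the NTD tissues, the order was turned on the FPKM as deposited. The nuclear median was 0.07 with 20 of 81 lower in brain (48.7% of all genes were). After rescaling to the same sum without mitochondrial genes it was -0.02 with 49 lower, where 66.7% of all genes then were. After adjustment for GC content and length 36 of 81 were lower, where 48.1% of all genes were. Cox4i2 and Cox7a1 were lower past the 5-to-4 threshold (10.4% of all genes were), Cox6b2 and Uqcrc1 higher past it (8.5% of all genes were), and none was 2-fold different on the log2 (FPKM + 1) scale (3.15% of all genes were). As ratios of reads, Cox4i2 was 2.17-fold lower in NTD brain (1.45 to 3.30) and Cox6b2 1.71-fold higher (1.253 to 2.34). The mitochondrial median was 0.25, and mt-Nd4 was 1.52-fold higher (1.48 to 1.55). These tissue comparisons use the same libraries as the NTD comparisons and are no further evidence for them.

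Other genes of the pathway were read beside the members. Of all genes 56.4% were lower in NTD brain and 58.0% in NTD spine, which is the background to each count here. Of 8 other subunits and electron carriers past the filter, 6 were lower in NTD spine with a median of -0.13, and 5 were higher in NTD brain with a median of 0.07. Cyc1, cytochrome c1 of complex III, had 69.4, 58.1, 73.7 and 65.9 FPKM and was 1.2-fold lower in NTD brain (1.13 to 1.27). Of 14 assembly factors of complex I, 11 were higher in NTD brain and 10 lower in NTD spine, with medians of 0.08 and -0.04. Ndufaf5 stood 1.29-fold above control in NTD brain (1.09 to 1.53) and Ndufaf3 1.35-fold lower in NTD spine (1.09 to 1.68). Of 27 assembly factors of complexes II to V, 12 were higher in NTD brain and 10 in NTD spine. Tmem70, which helps assemble ATP synthase, was 1.33-fold higher in NTD brain (1.17 to 1.52).

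Genes of mitochondrial translation had a spine median on the same side of 0 as the nuclear members. Of 75 mitochondrial ribosomal proteins, 60 were lower in NTD spine, where 58.0% of all genes were, with a median of -0.10, and 37 were lower in NTD brain, where 56.4% of all genes were, with a median of 0.01. Mrpl34 had 97.2, 77.6, 103 and 79.1 FPKM, lower in both NTD libraries, and Mrpl52 had 36.9, 36.4, 41.3 and 28.1 FPKM, lowest in NTD spine. The 13 genes of the citric acid cycle had a spine median of 0.02, with 7 higher, and a brain median of 0.07, with 11 higher. Suclg2 was higher in both NTD libraries, 1.21-fold in brain (1.13 to 1.30) and 1.12-fold in spine (1.05 to 1.20).

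Of 12 genes of coenzyme Q synthesis, 9 were lower in NTD brain and 8 in NTD spine, with medians of -0.09 and -0.10, where 56.4% and 58.0% of all genes were lower. Of 17 genes that copy and transcribe mitochondrial DNA, 10 were higher in each tissue, with medians of 0.01 and 0.02. Lrpprc, which stabilises mitochondrial messages, had 13.4, 16.5, 13.7 and 17.1 FPKM, with NTD above control by 1.23-fold in brain (1.16 to 1.31) and by 1.255-fold in spine (1.18 to 1.33). Tfam, which packages and transcribes mitochondrial DNA, had 23.4, 25.1, 22.2 and 22.7 FPKM. Of 7 nuclear regulators, 6 were lower in NTD brain and 5 in NTD spine. Esrra, a nuclear receptor that drives such genes, had 5.44, 4.32, 6.52 and 5.16 FPKM, 1.26-fold lower in brain (1.09 to 1.47) and in spine (1.1 to 1.45). All 7 carriers were higher in NTD brain, and 4 in NTD spine. Slc25a5, an ADP and ATP carrier, had 316.9, 377, 296 and 317.1 FPKM.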

How the data were processed

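RNA-seq of 4 libraries, 1 per group by sample title, was analysed. The authors deposited 1 table of FPKM for 28765 genes. The submitters' processing notes name HISAT2 2.0.1 and the build mm10. The counting program, annotation, strand setting and filters were not given in the sources used here.

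Identifiers were matched to GENCODE M21 (28698 matched, 67 not). FPKM times union exon length gave whole reads within 0.01 for 28298 genes (98.6%) and all 93 members. Folds are ratios of these reads per library total with exact (Clopper-Pearson) binomial intervals at 95%. Log2 ratios used a pseudocount of 1 FPKM on genes whose mean reached 1 FPKM, and calls were made at ratios of 5 to 4 and of 2. No test was run, since there is 1 library per group. Copies (at least 95% identity over at least 50% of the coding sequence) were found with BLAST 2.17.0. That definition, and the alternative of adding the reads of chromosome 1 copies, were chosen after seeing the data. Steps were tested on simulated data.

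The members, gene lists and tests were chosen with earlier results of these data known. Named were all mitochondrial and Sdh genes. In each other complex the 3 most abundant nuclear members and the extremes of each NTD comparison were named. So were members past 5 to 4 alike in both tissues or past 2-fold in any, all isoforms, and up to 3 genes of each other list. Further names complete a count and were chosen after their values were seen. Alternatives were other pseudocounts, filters, scalings, thresholds, an adjustment for GC content and length, leaving out members with copies, and another placing of Ndufa4. Python 3.11.15, pandas 2.3.3 and scipy 1.17.1 were used.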

Additional observations from a re-analysis of the deposited data

Results flagged for a closer look

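The median log2 ratio of the nuclear members was 0.0029 in NTD against control brain and -0.1272 in NTD against control spine, and that of the mitochondrial members was 0.1376 and -0.0156. These medians stand on opposite sides of 0 in the tissues. The nuclear brain median ranged from -0.026 to 0.036 over the settings tried and the mitochondrial spine median from -0.018 to 0.043, so the sign of each depends on the setting. Cox6a2, the muscle form of subunit VIa, was past a ratio of 5 to 4 in opposite directions, at 0.84 in brain and -0.82 in spine, from 3 and 14 reads in brain and 38 and 17 in spine. With 1 library per group the difference between the tissues was not tested in any of these cases.

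Some genes whose symbols match the pattern are not annotated as protein coding and entered no comparison, yet had reads. Their mean levels over the 4 libraries were 10.01 FPKM for Ndufb1-ps, 3.17 FPKM for Ndufb4c, 2.47 FPKM for Ndufs6b and 1.30 FPKM for Atp5l-ps1. Ndufb1-ps, annotated as a long noncoding RNA, had 9.18 and 10.6 FPKM in the control and NTD brain and 10.8 and 9.45 FPKM in the spine libraries.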

How the results depend on the processing

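There were 96 other settings of the nuclear and mitochondrial medians and their differences. Of these, 90 moved the value by less than the counting interval of a typical member. The limit is loose: for nuclear members in NTD spine against control spine, its median half-width was 0.125 and their own median -0.127. No median or difference reached the threshold for a call, so none could reverse a called value. Signs did change: the range was -0.018 to 0.043 for the mitochondrial median in NTD against control spine. It was -0.022 to 0.077 for the nuclear median in NTD brain against NTD spine and -0.026 to 0.036 in NTD against control brain. The mitochondrial median in NTD against control brain was 0.20 with no filter, 0.22 over the 4 mitochondrial members without a near-identical copy and 0.065 with the reads of the chromosome 1 copies added. Rescaling to the same sum without mitochondrial genes gave 0.043 in NTD against control spine and 0.15 in NTD brain against NTD spine, where leaving out members with copies gave 0.30.

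The count of nuclear members lower past the 5-to-4 threshold in NTD brain (2) was 1 with a pseudocount of 5, with a filter of 5 FPKM, without copies and at 1.5-fold, and 7 at 1.1-fold. In NTD spine (8) it was 3 with a pseudocount of 5, 5 with a filter of 5 FPKM and under either rescaling, 37 at 1.1-fold and 2 at 1.5-fold. In control brain against control spine (6) it was 1 with a filter of 5 FPKM and 17 at 1.1-fold. In NTD brain against NTD spine (2) it was 4 with a pseudocount of 0.1 and after rescaling to the same sum, 1 with a pseudocount of 5 and at 1.5-fold, 0 with a filter of 5 FPKM and 8 at 1.1-fold. The cause was not tested, beyond the fewer genes that a stricter filter leaves. Rescaling moved the median of all genes by under 0.1. The difference of nuclear from mitochondrial members has no value under the GC and length adjustment, which was fitted on nuclear genes.

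No paired analysis was possible because the groups compared share fewer than 2 replicate numbers, with 1 library each. A fit over both tissues with tissue as a term was not run. Depth limits the low isoforms: Cox6a2, Cox7a1 and Ndufa4l2 rest on 3 to 49 reads, so their folds have wide intervals.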
